A study of Homo sapiens with 72 samples.

Results

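Long non-coding RNA (lncRNA) genes whose TGF-β and SB431542 libraries differed after 24 h in MCF10A-M2 cells, and not in MCF10A-M1 or MDA-MB-231 cells, were collected from a table of lncRNA levels. They were chosen by a rule on the measured values, applied to the 13631 genes tested in all 3 lines, out of 96411 genes in the table. Levels were taken as log2(TPM + 0.5), and D is the mean at 24 h of TGF-β minus the mean at 24 h of SB431542, less the median of that difference over the genes tested in the line. A member had D of at least 0.8 in MCF10A-M2, with each TGF-β library there above each SB431542 library, and an absolute D under 0.3 in both other lines. The rule allowed up to 100 genes, and 67 passed. The 24 h libraries therefore chose the members from the tested genes, and every comparison that involves them is given as a description without a test.

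MCF10A-M1 (M1) is an established line of normal human mammary epithelial cells, MCF10A-M2 (M2) is its pre-malignant derivative, made by transformation with HA-Ras. MDA-MB-231 is an established triple-negative breast cancer line. Cells of all lines were kept overnight without serum, then received TGF-β at 5 ng/mL or SB431542 at 10 µM, with ligand buffer and DMSO as the vehicles, and total RNA was taken at 0, 2, 8 and 24 h. The TGF-β samples at 0 h were unstimulated controls. For the first SB431542 time point the sample titles state 0 h but the treatment field states 0.5 h; these libraries are referred to as the earliest SB samples. The 24 groups held 3 libraries each, described as biological triplicates, 72 libraries in all. Each line is one cell line, so a difference between lines cannot be told apart from other differences between these cultures, and M2 stands for HA-Ras transformation as a single derivative. In RNA from whole cultures, fewer cells that express a gene and less RNA per cell cannot be told apart.

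lncRNAs are transcripts that do not encode a protein, and some of them guide chromatin complexes, hold proteins or compete for microRNAs. TGF-β binds a pair of receptor kinases at the cell surface. The type I receptor then phosphorylates SMAD2 and SMAD3, which enter the nucleus with SMAD4 and regulate target genes. SB431542 blocks the kinase of the type I receptor, so a culture given it also loses the signal from TGF-β that the cells make themselves. In mammary epithelial cells the pathway is known for growth arrest and for epithelial-mesenchymal transition, and Ras signalling is known to modify the response. A difference between the arms is therefore a difference between a stimulated and an inhibited culture, not between a stimulated and an untreated one.

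The members carry NONCODE gene identifiers, the names of a catalogue of non-coding genes. The files do not pair them with gene symbols, and none of them matched the reference tables used, so neither known functions nor positions nor sequences are given. Epithelial and mesenchymal markers, and lncRNAs known from TGF-β biology, were not analysed here for the same reason.

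The starting set of 13631 genes fell to 773 with D of at least 0.8 in M2, to 628 whose M2 libraries did not overlap, to 127 that were also under 0.3 in M1, and to 67 with the limit in MDA-MB-231. The last member inside the M2 limit had D = 0.80 and the first gene outside it also 0.80 after rounding. The absolute D nearest the limit in M1 was 0.29 inside and 0.30 outside, and in MDA-MB-231 it was 0.30 inside and 0.31 outside. Over the members D in M2 had a median of 0.96 and reached 2.52, with 27 members at 1 or more and 3 at 1.5 or more. Most members therefore lay close above the limit. The same rule with M1 as the responding line gave 83 genes and with MDA-MB-231 gave 23.

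D is relative to the other genes of a line, whose median log2 difference at 24 h was -0.21 for M1, -0.09 for M2 and -0.33 for MDA-MB-231. Without that correction the members ranged from 0.72 to 2.43 in M2, with a median of 0.87. In M1 they ranged from -0.49 to 0.08, with a median of -0.09. In MDA-MB-231 each of the 67 members was lower in the TGF-β arm, from -0.62 to -0.03, with a median of -0.40. The rule fixed that direction, since an absolute D under 0.3 around the line's median of -0.33 leaves only values below 0. A value near 0 by the rule in MDA-MB-231 is thus a level somewhat lower with TGF-β than with SB431542, much like that line's other lncRNA genes.

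TPM values are transcript shares corrected for length and scaled so that the lncRNA genes alone make up each library, and they keep no read depth. Between 8458 and 16748 lncRNA genes per library were at 0.5 TPM or more (median 13174), and the 10 most abundant genes held 56.7% to 78.8% of the total. M2 libraries at 24 h were among the lowest, with 8458 to 10138 such genes in the TGF-β arm and 9261 to 9342 in the SB431542 arm, against 12533 to 14232 in the unstimulated controls. The part of this shift in the values of the members at 24 h was not tested.

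Most members were transcripts of low abundance. Mean TPM in M2 at 24 h of TGF-β ran from 0.364 to 292. There were 21 members under 1 TPM, 39 from 1 to 10 TPM and 7 at 10 TPM or more. At 24 h of SB431542 in M2, 28 members had a mean under 0.5 TPM, 19 were listed at 0 in at least one library and 3 were listed at 0 in all 3 libraries. No member was listed at 0 in a TGF-β 24 h library of M2. The rule forces this, since each such library had to lie above each SB431542 library.

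NONHSAG014373.2 was the most abundant member, with 305, 265 and 305 TPM in M2 at 24 h of TGF-β and 163, 169 and 144 TPM at 24 h of SB431542. It had started at 277, 217 and 312 TPM in the unstimulated controls and at 243, 327 and 342 TPM in the earliest SB samples. Its TGF-β libraries at 24 h thus lay within the range of the controls, and its SB431542 libraries lay below all of the earliest ones. NONHSAG043833.2 came next, with 67, 72.1 and 78.7 TPM at 24 h of TGF-β against 43.3, 41.2 and 35.6 TPM at 24 h of SB431542. Its controls were at 24.7, 21.6 and 33.1 TPM and its earliest SB samples at 38.2, 31.7 and 37.2 TPM, so that here the TGF-β arm lay well above its start and the SB431542 arm overlapped its start.

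NONHSAG037039.2 had the highest D in M2 (2.52). Its TGF-β libraries at 24 h held 5.78, 4.13 and 6.65 TPM, and its SB431542 libraries 1.42, 0 and 0.871 TPM. The 3 TGF-β libraries all lay above the controls of 0.694, 0.345 and 2.53 TPM. The second by D, NONHSAG112723.1 (1.95), had 12.1, 0.377 and 0.287 TPM with TGF-β and 0, 0 and 0.217 TPM with SB431542. A single library, replicate 1, held nearly all of its TGF-β signal, and the other 24 h libraries of both arms were all under 0.4 TPM.

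**Figure D1:**
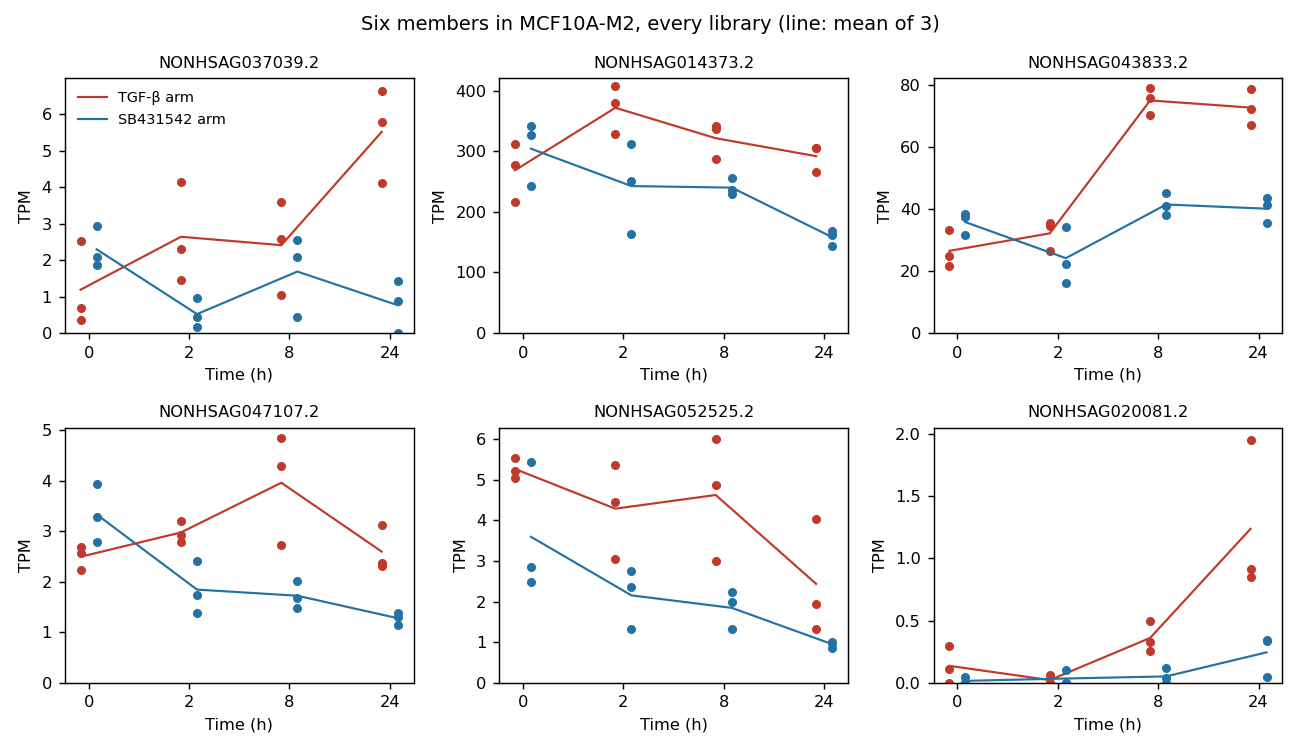
TPM of 6 members in M2 cells by time in hours, with one point per library (n = 3 per group) and a line through the group means, TGF-β arm in red and SB431542 arm in blue; the point at 0 h of the blue line is the earliest SB sample. NONHSAG043833.2 reached 70.1 to 78.8 TPM at 8 h of TGF-β against 38.0 to 45.1 TPM with SB431542, while NONHSAG014373.2 and NONHSAG052525.2 were lower at 24 h of SB431542 than at its start. NONHSAG052525.2 was also lower at 24 h of TGF-β than at 0 h, with means of 2.44 and 5.26 TPM.

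Whether the members were induced by TGF-β, as their working name says, depended on the scaling. In TPM as deposited, the difference between 24 h and 0 h of TGF-β in M2 had a median of -0.17 over the members, against -0.74 over all genes tested in M2, and was above 0 for 26 of the 67. All 3 libraries at 24 h lay above all 3 controls for 13 members (19.4%, against 5.27% of all genes tested), and below them for 17 members (25.4%, against 50.4%). In the SB431542 arm the difference between 24 h and the earliest samples had a median of -1.07, against -0.63 over all genes, and was above 0 for 6 members. The 24 h libraries lay below all the earliest ones for 49 members (73.1%, against 48.4%). These shares use the libraries that chose the members, and nothing is read from them beyond the values.

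By the signs of the mean differences, 20 members were higher in the TGF-β arm and lower in the SB431542 arm at 24 h than at the start, 41 were lower in both arms, 6 were higher in both, and none was lower with TGF-β and higher with SB431542. Of the 67 members, 38 were lower by at least 1 on the log2 scale in the SB431542 arm, and 9 were higher by at least 1 in the TGF-β arm. When libraries were rescaled by the median of ratios, which sets the typical gene equal between libraries, the TGF-β median became 0.71 (all genes -0.15), with 54 members above 0. The SB431542 median became -0.37 (all genes -0.11), with 13 members above 0. Under that scaling 41 members were higher with TGF-β and lower with SB431542, and 13 each were higher or lower in both.

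**Figure D2:**
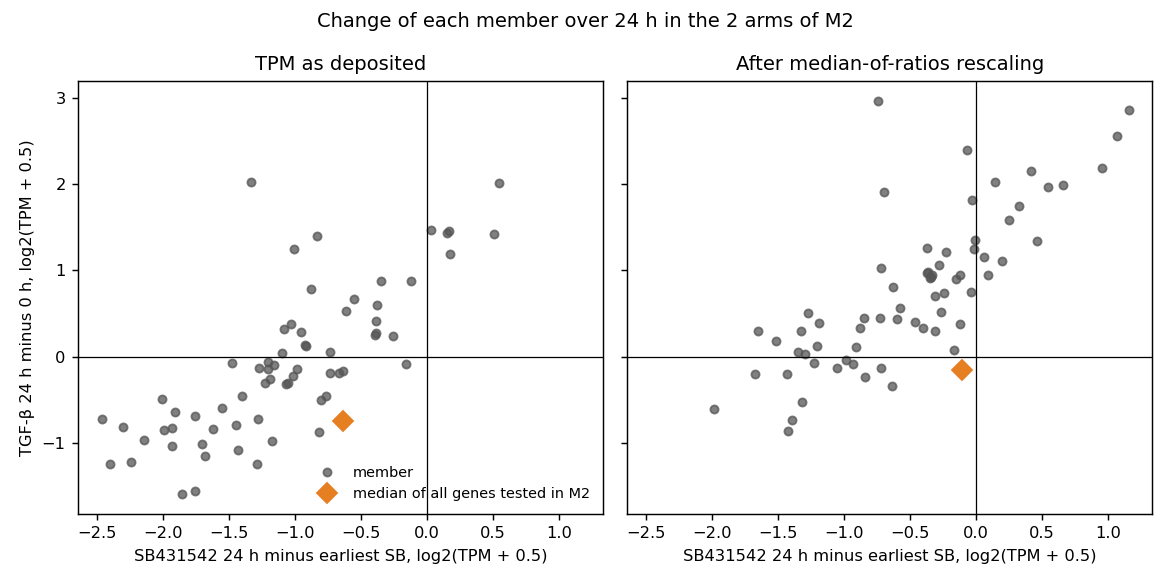
Each point is 1 of the 67 members in M2; the x axis is the mean of SB431542 24 h minus the earliest SB samples and the y axis the mean of TGF-β 24 h minus 0 h, both in log2(TPM + 0.5). As deposited (left) 41 members lie in the lower left, and after median-of-ratios rescaling (right) 41 lie in the upper left; the diamond is the median of all genes tested in M2, at -0.63 and -0.74 on the left.

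In TPM as deposited, the members' median level in M2 stayed close to its start with TGF-β and dropped away with SB431542. After median-of-ratios rescaling, as given above, the members' median difference of 24 h from the start was above 0 with TGF-β and below 0 with SB431542. The values in this paragraph are as deposited. The rule chose the members by the split at 24 h. Over all genes tested in M2, the median log2 difference of 24 h from the start was -0.74 with TGF-β and -0.63 with SB431542. The members' fall to 8 h of SB431542 was close to that of all genes, as given below. The median over members of the mean TPM was 2.23 in the controls, 2.48 at 2 h, 2.47 at 8 h and 2.01 at 24 h of TGF-β. In the SB431542 arm it was 2.32 in the earliest samples, 1.62 at 2 h, 1.66 at 8 h and 0.66 at 24 h. Per library, the median at 24 h was 1.46, 1.76 and 2.07 TPM with TGF-β and 0.703, 0.641 and 0.670 TPM with SB431542. At 8 h it was 1.80, 2.71 and 3.19 TPM with TGF-β and 1.32, 1.68 and 2.09 TPM with SB431542, so that the 2 arms overlapped at that time. At 2 h it was 2.25, 2.31 and 2.19 TPM against 2.41, 1.17 and 1.10 TPM, where replicate 1 of SB431542 stood with the TGF-β libraries.

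**Figure D3:**
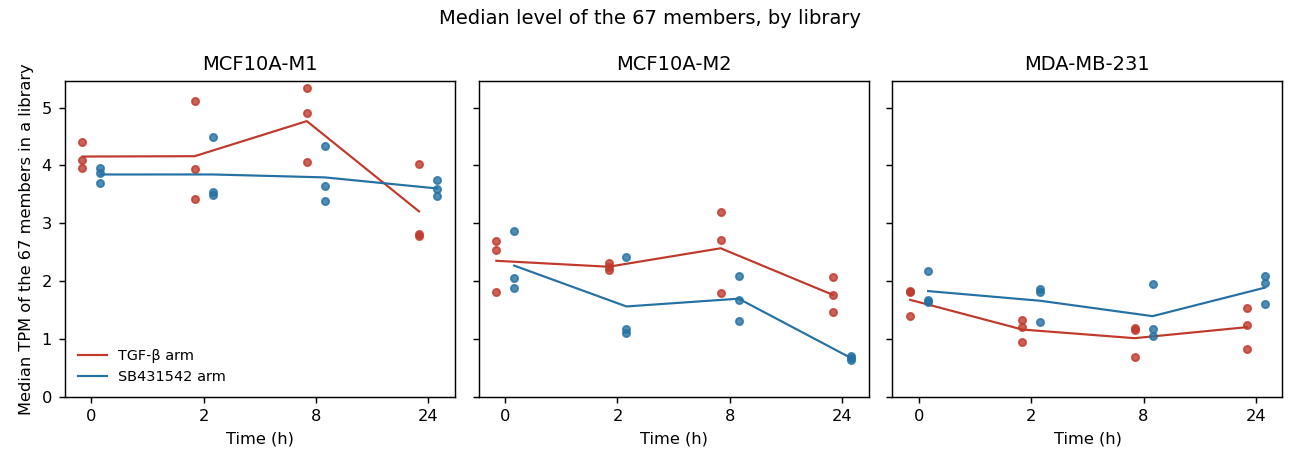
Median TPM, as deposited, of the 67 members in each library (points, n = 3 per group) by time in hours, with lines through the group means, for the TGF-β arm (red) and the SB431542 arm (blue) of each line. In M2 the SB431542 libraries at 24 h lie between 0.641 and 0.703 TPM, below the TGF-β libraries at 1.46 to 2.07 TPM; the 24 h libraries chose the members.

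The libraries at 0, 2 and 8 h entered the choice only through the filter for tested genes, 0.5 TPM or more in 3 or more of a line's 24 libraries. Differences among them were tested. The fits estimated the spread over all libraries of the lines compared, so the 24 h libraries entered the p-values through that spread. At 8 h in M2, 5 of the 67 members were higher with TGF-β than with SB431542 and none was lower (limma, adjusted p under 0.05). That is 7.46% of the members, against 6.04% of all genes tested called higher, so the share of calls was close to the background. An unadjusted p under 0.05 was reached by 24 members. The counts of unadjusted p here and below, and of members above 0, stand without the share over all genes. No excess of the members is read from them. The median difference over the members was 0.43, against 0.23 over all genes, and 57 members were above 0. All 3 TGF-β libraries lay above all 3 SB431542 libraries for 26 members (38.8%), against 21.6% of all genes. After median-of-ratios rescaling the median was 0.26, against 0.06 over all genes.

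NONHSAG114784.1 had 1.76, 2.64 and 2.06 TPM at 8 h of TGF-β and 0.379, 0.289 and 0.838 TPM with SB431542, a difference of 1.43 ± 0.39 (log2, SE; limma adjusted p = 0.0259). NONHSAG112113.1 had 0.633, 1.98 and 1.55 TPM against 0.306, 0.281 and 0.241 TPM (1.21 ± 0.36, limma adjusted p = 0.0408). Both were transcripts of a few TPM at most, and NONHSAG114784.1 at 8 h of TGF-β lay within the range of its controls of 3.04, 0.938 and 2.56 TPM. The other three called were NONHSAG052525.2 (1.10, adjusted p = 0.0485), NONHSAG047107.2 (0.98, adjusted p = 0.0151) and NONHSAG043833.2 (0.85, adjusted p = 0.0160), all by limma. NONHSAG047107.2 had 2.73, 4.85 and 4.29 TPM with TGF-β and 2.00, 1.68 and 1.48 TPM with SB431542, and its controls were at 2.56, 2.23 and 2.69 TPM.

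The count at 8 h rested on single libraries. Without TGF-β replicate 1, which had 11751 genes at 0.5 TPM or more against 13638 and 13822 in the others of its group, 13 members (19.4%) were called higher, against 8.83% of all genes in that fit. The count was 1 without TGF-β replicate 2, 0 without TGF-β replicate 3, and 2, 0 and 3 without SB431542 replicates 1, 2 and 3. It was 8 after median-of-ratios rescaling (11.9%, against 6.33% of all genes called higher) and 0 when the 10 most abundant genes were left out of the scaling total. The SB431542 libraries at 8 h had 10559 to 11913 genes at 0.5 TPM or more, fewer on the whole than the TGF-β libraries, and the part of this in the difference was not tested.

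At 2 h in M2, 2 members (2.99%) were called higher with TGF-β than with SB431542 and none lower, against 4.03% of all genes called higher, which is no more than the background, and 23 members had an unadjusted p under 0.05. The median over the members was 0.45, against 0.27 over all genes, and 58 were above 0. The libraries did not overlap, with TGF-β above, for 19 members (28.4%), against 13.6% of all genes. NONHSAG048519.2 had 8.27, 6.75 and 4.90 TPM with TGF-β and 3.73, 2.71 and 2.38 TPM with SB431542 (1.04 ± 0.27, limma adjusted p = 0.0285). NONHSAG094260.1 had 9.42, 8.33 and 10.4 TPM against 6.04, 3.72 and 4.57 TPM (0.93 ± 0.24, limma adjusted p = 0.0294). In each the lowest TGF-β library lay above the highest SB431542 library.

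SB431542 replicate 1 at 2 h stood apart, with 13996 genes at 0.5 TPM or more against 10705 and 10335, and a summed level of the members of 617 TPM against 428 and 319 TPM. Without it, 17 members (25.4%) were called higher at 2 h, against 17.1% of all genes in that fit. Without TGF-β replicate 3 the count was 1, and without any other of the 6 libraries it was 0. Both calls were also lost after median-of-ratios rescaling, where the members' median was 0.16 against 0.00 over all genes. NONHSAG037039.2, the first by D, had 4.15, 2.31 and 1.47 TPM against 0.974, 0.429 and 0.159 TPM at 2 h, groups that did not overlap, with a difference of 1.61 ± 0.53 that missed the threshold (limma adjusted p = 0.0887).

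The 2 arms of M2 were also compared before or at the start of treatment. No member was called between the unstimulated controls and the earliest SB samples by limma, against 0.0118% of all genes called in either direction, and 8 members had an unadjusted p under 0.05. The count was 0 under the other settings tried as well. The median difference was -0.07. Single members differed by more, such as NONHSAG060357.1 (1.13) and, the other way, NONHSAG037039.2 (-0.93). NONHSAG114784.1, called at 8 h, had means of 2.18 TPM in the controls and 0.838 TPM in the earliest SB samples (0.91). With 3 libraries per group, the lack of calls does not show that the arms started alike.

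Within the TGF-β arm of M2, 2 members (2.99%) rose between 0 h and 8 h, against 2.65% of all genes called higher, and the median over the members was 0.11 against -0.08 over all genes. NONHSAG043833.2 went from 24.7, 21.6 and 33.1 TPM to 70.1, 75.8 and 78.8 TPM, an increase of 1.5 ± 0.21 (limma adjusted p = 6.30e-05). The lowest 8 h library was far above the highest control, and the call was kept under each of the 14 alternatives. NONHSAG040392.2 went from 11.5, 11 and 13.7 TPM to 19.1, 24.1 and 26.1 TPM (0.90 ± 0.20, limma adjusted p = 0.00668). With SB431542 this member also reached 19.4, 19.1 and 20.5 TPM at 8 h from 14.3, 15.9 and 16.3 TPM, and was at 11.1, 10.6 and 9.50 TPM at 24 h. The count within the TGF-β arm was 5 after median-of-ratios rescaling (7.46%, against 5.25% of all genes called higher).

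Within the SB431542 arm of M2, 2 members (2.99%) fell between the earliest samples and 8 h, against 1.88% of all genes called lower, with a median of -0.36 over the members and -0.33 over all genes. NONHSAG072244.1 went from 12.2, 9.80 and 15.3 TPM to 6.23, 5.87 and 4.33 TPM, and fell by 1.11 ± 0.28 on the log2 scale (limma adjusted p = 0.0389). NONHSAG048519.2 went from 7.19, 6.46 and 4.57 TPM to 2.29, 2.61 and 3.12 TPM, and fell by 1.04 ± 0.27 (limma adjusted p = 0.0436). Both were lower in each 8 h library than in each of the earliest ones. Neither call was kept after median-of-ratios rescaling, which called 2 members higher (2.99%, against 1.16% of all genes), and the count was 1 without replicate 2 of the earliest SB samples and 0 without any other of the 6 libraries. Median-of-ratios rescaling put the members' median at -0.11 and that of all genes at -0.04, so that the members' shift was close to that of the other genes under both scalings.

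**Figure D4:**
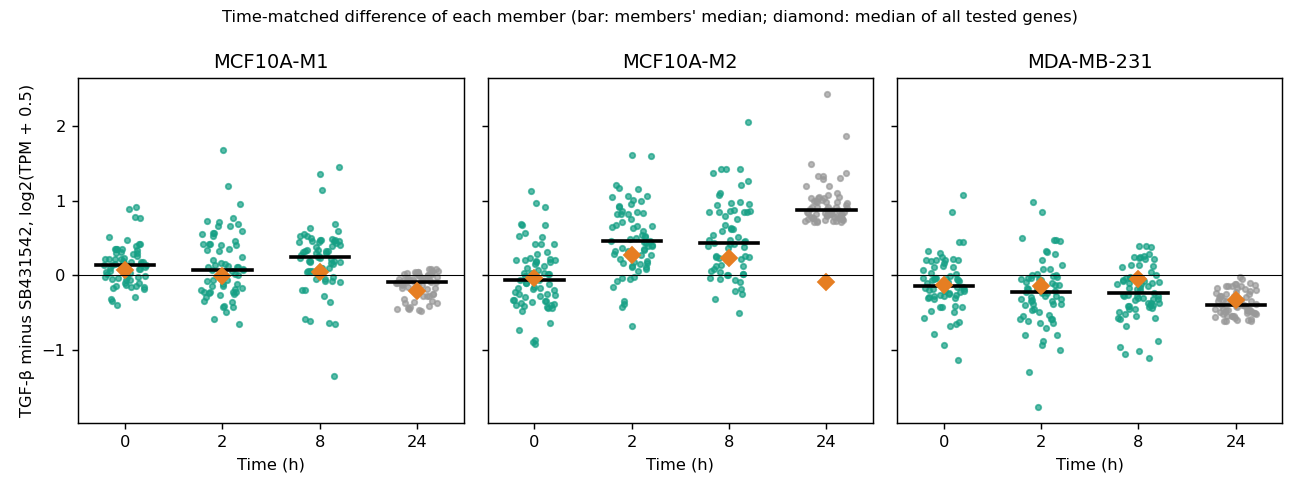
TGF-β minus SB431542 in log2(TPM + 0.5) at each time in hours for each of the 67 members (points), with the members' median (bar) and the median of all genes tested in the line (diamond). In M2 the members' medians are 0.45 at 2 h and 0.43 at 8 h, above the line's 0.27 and 0.23; the grey points at 24 h chose the members.

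In M1 the members' median difference had the same direction at 8 h. There 3 members (4.48%) were called higher with TGF-β than with SB431542, against 5.41% of all genes, and none lower. The median was 0.24 over the members and 0.04 over all genes, and 17 members (25.4%) had all TGF-β libraries above all SB431542 libraries, against 15.5% of all genes. NONHSAG037039.2 had 7.58, 5.8 and 7.61 TPM against 3.43, 2.87 and 1.33 TPM (1.36 ± 0.33, limma adjusted p = 0.00923). NONHSAG026692.3 had 9.75, 8.66 and 9.84 TPM against 4.77, 3.96 and 3.38 TPM (1.14 ± 0.29, limma adjusted p = 0.0155). The third was NONHSAG043833.2 (0.60 ± 0.14, limma adjusted p = 0.00798). Without SB431542 replicate 3 the count was 1.

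At 2 h in M1, a comparison added after the data had been seen, 2 members (2.99%) were called higher, against 1.03% of all genes. NONHSAG037039.2 had 16.1, 15.2 and 12.4 TPM with TGF-β and 4.5, 5.87 and 2.68 TPM with SB431542, an increase of 1.68 ± 0.33 over the inhibited arm (limma adjusted p = 0.00663). NONHSAG043833.2 had 41.2, 37.6 and 39.2 TPM against 17.8, 20.5 and 22.2 TPM (0.95 ± 0.14, limma adjusted p = 0.000353). By 24 h in M1 the arms of both members overlapped, with 2.54, 3.8 and 2.40 TPM against 3.26, 1.77 and 5.14 TPM for NONHSAG037039.2, and 29.6, 30.03 and 34.1 TPM against 34.7, 33.9 and 37.5 TPM for NONHSAG043833.2. The member with the highest D in M2 at 24 h was thus one whose M1 libraries differed earlier, at 2 h and 8 h. Without SB431542 replicate 3 at 2 h the count was 1, and the call for NONHSAG037039.2 was lost.

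In MDA-MB-231 the members leaned the other way. At 8 h none was called by limma in either direction, against 0.936% of all genes, 5 members had an unadjusted p under 0.05, and the count was 0 under the other settings tried. The median was -0.23 over the members and -0.06 over all genes, and 8 members (11.9%) had all TGF-β libraries below all SB431542 libraries, against 7.06% of all genes. At 2 h, also added after the data had been seen, 1 member (1.49%) was called lower with TGF-β, against 0.652% of all genes. It was NONHSAG110242.1, at 0.988, 0.282 and 0.746 TPM with TGF-β and 2.60, 2.19 and 2.13 TPM with SB431542, lower by a log2 difference of -1.31 ± 0.31 (limma adjusted p = 0.0341). That call was kept without TGF-β replicate 1 and lost without any other of the 6 libraries. NONHSAG037039.2 was at 18.6, 16.2 and 15.2 TPM against 11, 6.28 and 10.4 TPM at 2 h in this line, groups that did not overlap, and missed the threshold (0.85 ± 0.22, limma adjusted p = 0.0555).

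The difference between lines was tested directly as an interaction at 8 h, that is, the TGF-β minus SB431542 difference of M2 less that of another line. For M2 less M1 no member was called by limma, against 0.517% of all genes in either direction, 7 had an unadjusted p under 0.05, and the count was 0 under every other setting tried. The median was 0.25 over the members and 0.15 over all genes. A stronger response of the members in M2 than in M1 at 8 h was therefore not shown for any one of them, and its absence was not shown either.

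For M2 less MDA-MB-231, 5 members (7.46%) were called higher, against 2.42% of all genes, and none lower, with a median of 0.65 over the members and 0.25 over all genes. NONHSAG112113.1 differed by 1.59 ± 0.43 (limma adjusted p = 0.0310). In MDA-MB-231 it had 0.276, 0.116 and 0.171 TPM with TGF-β and 0.298, 0.226 and 0.722 TPM with SB431542, low in both arms. NONHSAG052525.2 differed by 1.52 ± 0.43 (limma adjusted p = 0.0391), from 2.99, 4.87 and 6.01 against 1.32, 1.99 and 2.22 TPM in M2 and 1.09, 0.637 and 1.10 against 1.3, 1.21 and 1.76 TPM in MDA-MB-231. The other three were NONHSAG048519.2, NONHSAG047107.2 and NONHSAG062825.2. Here too the count moved with single libraries. It was 0 without TGF-β replicate 2 or 3 of M2, TGF-β replicate 2 of MDA-MB-231 or SB431542 replicate 3 of MDA-MB-231, and 1 without SB431542 replicate 1 or 2 of M2. It was 2 without TGF-β replicate 3 and 3 without TGF-β replicate 1 of MDA-MB-231.

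The genes chosen by the same rule for the other lines give a scale for the earlier times. At 8 h in their own line, the 83 genes of M1 had a median of 0.67, against 0.04 over all genes of the line, and 50 of them (60.2%, against 15.5%) had all TGF-β libraries above all SB431542 libraries. The 23 genes of MDA-MB-231 had a median of 0.33, against -0.06, and 6 such genes (26.1%, against 5.79%). For the M2 members these values were 0.43 against 0.23, and 38.8% against 21.6%. In M2 itself at 8 h, the 83 genes of M1 had a median of 0.59 and 39 of them (47%) had all TGF-β libraries above all SB431542 libraries, beside 38.8% of the members. At 2 h in their own line the median was 0.05 for the M1 genes (all genes -0.01) and 0.05 for the MDA-MB-231 genes (all genes -0.15). The 0.45 of the M2 members stood beside 0.27 over all genes of M2, and was 0.16 beside 0.00 after median-of-ratios rescaling. Differences between these lists were not tested.

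In the unstimulated controls, the members tended to be lower in M2 than in M1. Of the 67 members, 25 (37.3%) were lower in M2 than in M1 at 0 h and 1 (1.49%) was higher (limma, adjusted p under 0.05), against 17.1% and 2.12% of all genes tested, and against 19.7% called lower among the genes tested in all 3 lines. The median was -0.75 over the members and -0.38 over the genes tested in all 3 lines. After rescaling by the median of ratios, 16 members (23.9%) were called lower, against 7.25% of all genes and 7.53% of those tested in all 3 lines, and 2 (2.99%) higher, against 6.25% of all genes, with a median of -0.41 against -0.07 over all genes. Fitted on the 2 control groups alone, the 26 calls became 10. M1 had the highest mean TPM of the 3 lines for 49 members, MDA-MB-231 for 11 and M2 for 7. In the earliest SB samples, compared without a test, the lean was weaker, with a median of -0.45 against -0.27 over the genes tested in all 3 lines. There all M2 libraries lay below all M1 libraries for 24 members (35.8%, against 26.1%), and above them for 5 (against 1288 of 13631 genes). In the controls they lay below for 35 members (52.2%, against 32.2%) and above for 0 (against 636 genes).

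NONHSAG020081.2 had 2.97, 2.6 and 2.88 TPM in unstimulated M1, against 0.109, 0.299 and 0 TPM in M2, while MDA-MB-231 held 15.5, 11 and 9.27 TPM. The log2 difference of M2 from M1 was -2.41 ± 0.26 (limma adjusted p = 1.06e-08), and that of M2 from MDA-MB-231 was -4.28. The low level in M2 was at or under 0.299 TPM in each control. At 24 h of TGF-β it was 0.912, 0.850 and 1.95 TPM, still below each MDA-MB-231 library. The mean of this member was under 0.5 TPM in every other M2 group. It thus met the filter for tested genes in M2 only through the 24 h TGF-β libraries, which also chose it. Nothing is read from its low start and later level in M2 beyond the values. NONHSAG037039.2 was also lower in M2, with 0.694, 0.345 and 2.53 TPM against 5.07, 4.07 and 8.34 TPM in M1 (-2.07 ± 0.46, limma adjusted p = 0.00138). The member called higher in M2 was NONHSAG114784.1, with 3.04, 0.938 and 2.56 TPM against 1.44, 0.311 and 0.133 TPM (1.32 ± 0.48, limma adjusted p = 0.0489). Its groups overlapped, and it was named because the count is 1.

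Against MDA-MB-231, members went both ways at 0 h. In M2, 18 members (26.9%) were higher and 7 (10.4%) lower, against 24.4% and 14.7% of all genes, with a median of 0.34 over the members and 0.18 over all genes tested. These shares are near those of the other genes. After median-of-ratios rescaling 16 (23.9%) were higher and 12 (17.9%) lower, against 20.2% and 20% of all genes, again near them. NONHSAG052234.2 had 11.2, 4.59 and 11.6 TPM in M2 and 0.111, 1.04 and 0 TPM in MDA-MB-231, a difference of 3.53 ± 0.44 (limma adjusted p = 1.95e-08). NONHSAG062825.2 had 8.74, 7.45 and 8.40 TPM against 0.599, 0.431 and 0.467 TPM (3.12 ± 0.25, limma adjusted p = 2.34e-13). In the other direction, NONHSAG028579.2 had 0.306, 0 and 0.0901 TPM in M2 against 14.8, 12.0 and 10.1 TPM in MDA-MB-231, a log2 difference of -4.36. Its mean was under 0.5 TPM in every M2 group, and highest at 24 h of TGF-β (0.445 TPM).

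**Figure D5:**
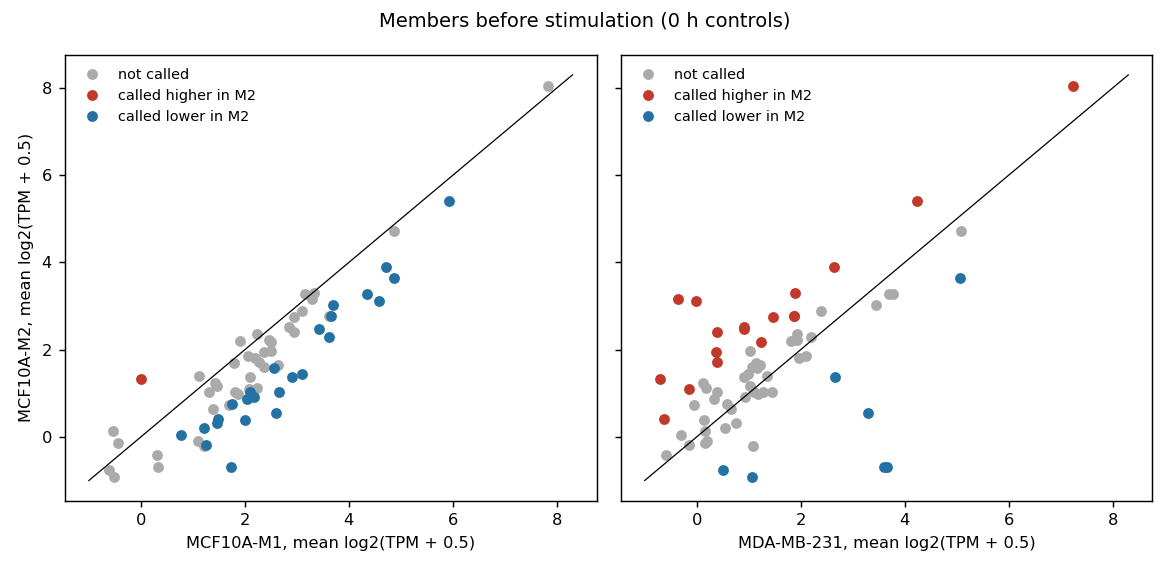
Mean log2(TPM + 0.5) of each of the 67 members in the unstimulated 0 h controls (n = 3 per line), M2 on the y axis against M1 (left) or MDA-MB-231 (right) on the x axis, with the line of equal levels. Blue points were called lower in M2 (25 against M1, 7 against MDA-MB-231) and red points higher (1 and 18).

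The gap between lines at 24 h differed by arm, which the rule fixed in advance. For each member, the TGF-β gap less the SB431542 gap is the difference between arms in M2 less that in the other line. The rule set limits on both. At 24 h of TGF-β the members' median in M2 was lower than in M1 by a log2 difference of -0.73, against -0.90 over the genes tested in all 3 lines. At 24 h of SB431542 it was -1.64, against -0.98. Set against MDA-MB-231, the median was 0.41 with TGF-β (the genes tested in all 3 lines -0.32) and -0.84 with SB431542 (-0.52). These values also hold the 24 h libraries that chose the members. In M1 the members' median over groups of mean TPM lay between 2.78 and 4.65, and in MDA-MB-231 between 1.06 and 2.03.

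Among themselves, the members varied together only loosely over the 18 M2 libraries at 0, 2 and 8 h. The mean pairwise correlation of log2(TPM + 0.5) was 0.31, against 0.22 over the genes tested in all 3 lines, which share the same libraries, groups and scaling.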

How the data were processed

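Total RNA was isolated with TRIzol and sequenced, per the labels' protocols. The authors deposited TPM values per NONCODE lncRNA gene, scaled over these genes alone. Per the submitters' processing notes, the build was GRCh38 and the tools StringTie 1.3.6, HISAT2 2.2.0, cutadapt 2.10 and FastQC. Their parameters, the annotation release and the strand setting were not given in the sources used here, so reads of overlapping, antisense or near-identical genes cannot be told apart. TPM keeps no depth, so counting error, largest for low values, could not be estimated. Columns were matched to samples by their labels, 0 columns were left unused, and the design text speaks of 36 samples where 72 are listed. If the triplicates were not separately grown, the p-values speak only of how far these samples spread. No batch is named in the labels.

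A gene entered a fit with 0.5 TPM or more in 3 or more of its libraries, and was tested on log2(TPM + 0.5), which understates changes of low genes, with limma 3.58.1 (eBayes with trend) in R 4.3.3, two-sided, with p-values adjusted by Benjamini-Hochberg over all genes of the fit and called under 0.05. Within a line all 24 libraries entered; comparisons between 2 lines used 48. All 67 members passed this filter by the rule. The fit was tested on simulated data. Members, lists, tests and the rule for naming genes were chosen with earlier results of these data known. The 2 h comparisons in M1 and MDA-MB-231 were added after the data were seen. Named members are, per tested contrast, the first 2 higher and the first 2 lower by absolute log2 difference among those called whose groups did not overlap (for an interaction, the M2 groups), the first 2 by D and the 2 most abundant at 24 h of TGF-β in M2; others were named where a count was 5 or fewer. Alternatives were other pseudocounts (1 and 0.1), no filter, a filter at a mean of 1 TPM, scaling by the median of ratios or by a total without the 10 most abundant genes, a block for the replicate number, a fit of the compared groups alone, and each library left out in turn. Python 3.11.15 with pandas 2.3.3 was used for the descriptions.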

Additional observations from a re-analysis of the deposited data

Results flagged for a closer look

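At 8 h, 5 members (7.46%, against 2.42% of all genes) were called higher for M2 less MDA-MB-231 by the interaction test (limma adjusted p under 0.05). The difference of the differences, M2 less MDA-MB-231 in log2(TPM + 0.5), was 1.59 for NONHSAG112113.1 (adjusted p = 0.0310), 1.52 for NONHSAG052525.2 (0.0391), 1.42 for NONHSAG048519.2 (0.0384), 1.40 for NONHSAG047107.2 (0.0147) and 1.24 for NONHSAG062825.2 (0.0470). In M2 each of the 5 had all TGF-β libraries above all SB431542 libraries at this time. The calls did not hold under many other settings. In the order given, they were lost in 10 of 19, 11 of 20, 11 of 20, 5 of 20 and 14 of 20 alternatives. None of the 5 was kept when only the compared groups were fitted. No group had enough libraries for a search for single outlying samples.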

How the results depend on the processing

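The choice of members was sensitive to the pseudocount. Of the 67, 25 passed the rule again with a pseudocount of 1, 38 with 0.1, 50 after median-of-ratios scaling, and 49 to 59 when 1 library at 24 h was left out. The counts of calls that follow stand without the share of all genes called under the same setting. That share moved with the setting as well, as given above for some fits. A rise or fall in a count is therefore not read as a result about the members. The count of members called in M2 at 8 h (5) was 3 with a pseudocount of 0.1, 2 without the filter, 8 after median-of-ratios scaling, 0 with a scaling total that omits the 10 most abundant genes, 2 with the compared groups alone, and 0 to 13 without 1 library. That at 2 h in M2 (2) was 8 with a filter at a mean of 1 TPM, 0 after median-of-ratios scaling, 0 with the 10 most abundant genes out of the total, 0 with the compared groups alone, and 0 to 17 without 1 library. Between 8 h and 0 h of TGF-β the count (2) was 5 after median-of-ratios scaling, 1 with the compared groups alone, and 2 to 3 without 1 library. Between 8 h and the earliest samples of SB431542 (2) it was 0 with a pseudocount of 0.1, without the filter, with the 10 most abundant genes out of the total, with the replicate block and with the compared groups alone, and 0 to 1 without 1 library. In M1 the count at 8 h (3) was 5 with a filter at a mean of 1 TPM and 1 to 3 without 1 library, and that at 2 h (2) was 0 with the compared groups alone and 1 to 2 without 1 library. In MDA-MB-231 the count at 2 h (1) was 0 without the filter, 2 with a filter at a mean of 1 TPM, 3 after median-of-ratios scaling, 2 with the replicate block, 0 with the compared groups alone, and 0 to 1 without 1 library. The interaction of M2 with MDA-MB-231 (5) gave 2 with a pseudocount of 0.1, 2 without the filter, 3 with the 10 most abundant genes out of the total, 0 with the compared groups alone, and 0 to 6 without 1 library. At 0 h, the 26 members called between M2 and M1 became 10 with the compared groups alone and 18 to 25 without 1 library, and the 25 between M2 and MDA-MB-231 became 23 to 26 without 1 library. The cause was not tested, save that the compared groups alone and the settings without 1 library hold fewer samples.

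Over the 21 results of single named members, 303 alternatives were run: the call was kept in 212 and lost in 91, and no direction was reversed. The losses were uneven. Among these results, calls between lines at 0 h and between 8 h and 0 h of TGF-β in M2 lost at most 1 alternative each. Between the arms of M2, calls were lost in 7 of 14 and 8 of 13 alternatives at 8 h, and in 7 of 14 and 8 of 14 at 2 h. The 2 falls within the SB431542 arm were lost in 11 of 14 and 12 of 14. Same-numbered libraries showed no shared deviation in the median, which does not settle how the cultures were grown or paired. The correlation of deviations between same-numbered libraries had a median of 0.0013 for M1, -0.013 for M2 and -0.0090 for MDA-MB-231. Single pairs ranged from -0.06 to 0.05 in M1, from -0.14 to 0.14 in M2 and from -0.11 to 0.14 in MDA-MB-231. With the replicate block the counts were 5 in M2 at 8 h, 2 in M2 at 2 h, 3 in M1 at 8 h and 25 and 26 at 0 h against M1 and MDA-MB-231. Depth is unknown, and 28 members averaged under 0.5 TPM at 24 h of SB431542 in M2, where the pseudocount sets much of the difference.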

Other observations

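A few members have neighbouring numbers in the catalogue of identifiers, noticed after the values were seen. NONHSAG105034.1 and NONHSAG105035.1 are consecutive, and the numbers of NONHSAG082912.1 and NONHSAG082915.1 differ by 3 and those of NONHSAG108951.1 and NONHSAG108955.1 by 4. The consecutive pair had similar levels, with 7.01 ± 0.49 and 8.04 ± 0.49 TPM (SD, n = 3) in unstimulated M1 and 2.1 ± 0.25 and 2.23 ± 0.26 TPM in unstimulated M2, and both were called lower in M2 at 0 h by limma. Whether they lie side by side in the genome, or share reads, was not analysed here.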
